A study of Danio rerio with 6 samples.

Results

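The proteasome genes were taken as all rows of the count table whose gene name begins, case ignored, with psma, psmb, psmc, psmd, psme, psmf or psmg. This gave 58 of the 32105 genes in the table, of which 57 had enough counts to be tested. RNA was sequenced from 3 homozygous IT325 mutants (allele t24980) and from 3 wild-type siblings, all labelled as 5 dpf (days post fertilization) and of a mixed wild-type background. IT325 is a chemically induced nonsense allele of ikzf1. It truncates the transcription factor Ikaros, which loses C-terminal zinc fingers and keeps those that bind DNA. The study's methods describe 3 individual fish per genotype. The samples are labelled whole body, but muscle and epidermis markers were nearly absent, and the tissue sequenced may not be what the label says. The age likewise rests on the labels and the study's methods and was not checked against the values. A level is an average over whichever cells were sampled, and a change in the number of cells of a type cannot be told apart from a change in RNA per cell.

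The proteasome is the barrel-shaped protease that degrades proteins tagged with ubiquitin. Its 20S core is a stack of rings, in which outer alpha subunits control entry and inner beta subunits carry the catalytic sites. The 19S cap has a base, whose ATPases unfold the substrate, and a lid, which removes the ubiquitin chain. Other activators can replace the cap, and dedicated chaperones assemble core and base. In immune cells the catalytic beta subunits can be exchanged for inducible versions, which make the immunoproteasome and favour peptides for display on MHC class I. A further version of the core is made in thymic epithelium. Red cell precursors also depend on the ubiquitin-proteasome system when they clear their organelles and spare proteins.

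The libraries held 37390073 to 53279243 counts each. Levels are given as CPM, counts per 1000000 counts of the tested genes, after scaling of the libraries by TMM (trimmed mean of M values). The mutated gene, ikzf1, was at 1167, 1767 and 1149 CPM in mutants, against 276, 306 and 300 CPM in wild type (log2 fold change 2.21, SE 0.174, edgeR adjusted p 0.000117). None of the 11 skeletal muscle markers and none of the 7 epidermis markers reached a mean of 10 CPM, and the median muscle marker was at 0.184 CPM. Blood markers were abundant, with medians of 2419 CPM over 8 neutrophil genes and 438 CPM over 12 erythroid genes. All 12 erythroid markers rose in mutants, and all 6 B cell and all 10 T cell markers fell. Of the 8 neutrophil markers 4 rose and 1 fell. Of all 17828 genes tested 17.5% rose and 16.4% fell, at an edgeR adjusted p under 0.05.

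Of the 38 constitutive genes of the core rings, base and lid, 24 rose in mutants by a modest margin and 1 fell. The 24 include only 2 of the 10 alpha ring genes, 20% beside 17.5% of all genes. They also count 2 rows of psmd2, which are not independent. Of the 5 inducible beta genes tested 0 rose and 1 fell. The contrast between constitutive and inducible genes was not tested, and the inducible gene psmb10 lay higher in mutants without overlap. The 1 inducible gene that fell is 20% of the 5, near the 16.4% of all genes. With 5 genes, 0 rises cannot be told apart from the 17.5% of all genes. Of the 57 members tested, 30 passed an adjusted p of 0.05 (quasi-likelihood test of edgeR), beside 33.9% of all 17828 genes tested. Of these members 27 rose and 3 fell, beside 17.5% and 16.4% of all genes, and the other 27 did not pass. The median log2 fold change was 0.27 over the members and -0.01 over all genes tested. The members lay close together, with an SD of 0.27 between their log2 fold changes against 1.101 for all genes. Their standard errors were also smaller, with a median of 0.092 against 0.164 over all genes. A mean of at least 10 CPM was reached by 56 of the 58 members. The part of abundance in the narrow spread and in the share called was not tested. No member changed 2-fold, and 3 called members, psmb7, psmb5 and psmf1, changed at least 1.5-fold. The levels of mutants lay above those of wild type without overlap for 38 members and below them for 5, beside 25.8% and 24.7% of all genes tested. Without scaling factors the median of all genes shifted to -0.11, and 14 members rose and 4 fell, against 13.6% and 21.0% of all genes. The count of members that rose was 17 without mutant replicate 1, beside rises in 2456 of 18326 genes tested. On leaving out wild type replicate 1 or wild type replicate 2 it was 14, beside rises in 2409 of 18435 and 2478 of 18445 genes.

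**Figure D1:**
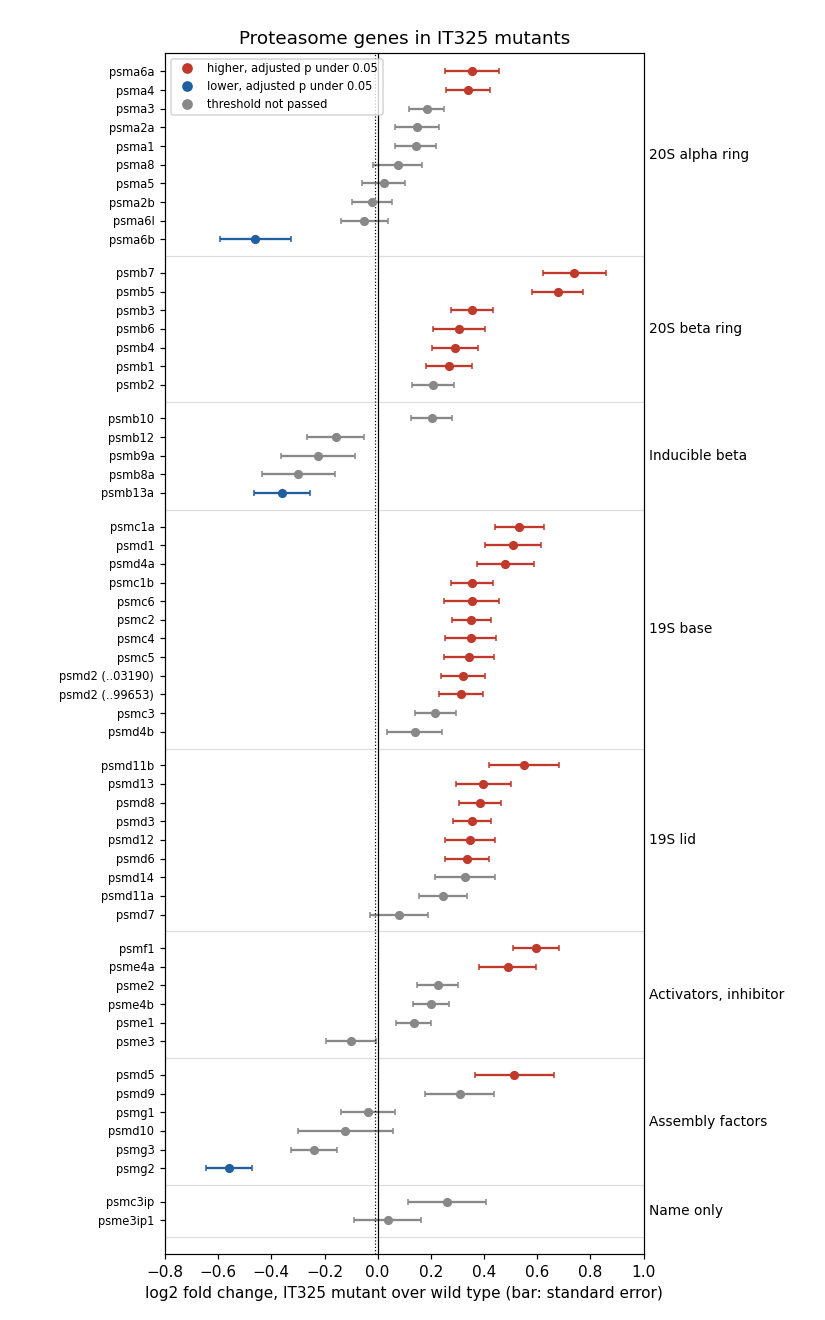
Log2 fold change of each tested proteasome gene, mutant over wild type, grouped by class, with bars for the standard error and colour for the call (edgeR adjusted p under 0.05). The dotted line is the median of all genes tested, -0.01. The 19S base, the 19S lid and the 20S beta ring lie to its right, from 0.08 for psmd7 to 0.74 for psmb7, and 4 of the 5 inducible beta subunits lie to its left.

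The calls were counted by class, beside 17.5% of all genes that rose and 16.4% that fell. In the 19S base 10 of 12 genes rose, in the 20S beta ring 6 of 7 and in the 19S lid 6 of 9, with median log2 fold changes of 0.35, 0.31 and 0.35. In the 20S alpha ring 2 of 10 rose and 1 fell, with a median of 0.11, shares near those of all genes. Among activators and their inhibitor 2 of 6 rose, with a median of 0.21, and among assembly factors 1 of 6 rose and 1 fell, with a median of -0.08 and shares again near those of all genes. Of the 5 inducible beta genes tested 0 rose and 1 fell, with a median of -0.22. The share that fell, 20%, was near that of all genes. At an unadjusted p under 0.05 in edgeR 1 inducible gene was higher and 1 lower. The share of all genes at that threshold was not counted. DESeq2 called 0 inducible genes higher and 1 lower, beside 3512 and 2932 of the 20934 genes it tested. The median of each class kept its sign under the 4 other scalings, with that of the alpha ring at 0.0037 without factors. Without scaling factors 13.6% of all genes rose and 21.0% fell. Beside these shares 5 genes of the base, 3 of the beta ring, 4 of the lid, 0 of the alpha ring and 0 of the assembly factors rose. Of the assembly factors 2 fell. The difference between classes was not tested.

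Within the genotypes the libraries did not stand level. Over the 38 genes of the core rings, base and lid, the median difference from each gene's wild-type mean, as log2(CPM + 0.5), was 0.43, 0.24 and 0.27 in the mutant libraries, against -0.04, -0.07 and 0.11 in the wild-type libraries. The groups did not overlap in this median. Mutant replicate 1 had the highest level of the 6 libraries for 38 of the 57 members, and wild type replicate 3 was the highest wild-type library for 47 of them. How often these libraries were highest over all genes was not counted. They also held the most counts, 52954765 and 53279243, against 37390073 to 42666928 in the others. Mutant replicate 1 had the lowest TMM factor, 0.919, which raises its CPM. The part of depth and scaling was not tested. The summed level of the 12 erythroid markers was likewise highest in mutant replicate 1 and, within wild type, in replicate 3, at 35867, 27179 and 23998 CPM in mutants, against 8123, 6688 and 10495 CPM in wild type. Most of this sum was hbaa1, at 22292 CPM in mutant replicate 1 and 6546 CPM in wild type replicate 3. The median difference over the 12 markers had the same order, 1.93, 1.65 and 1.49 in mutants, against 0.02, -0.26 and 0.23 in wild type. Single markers departed from it. Alas2 and tfr1a were highest in mutant replicate 2, and epor was lowest within wild type in replicate 3. The part of erythroid cells in the proteasome values was not tested. The members together took 0.316% to 0.321% of all counts in mutants and 0.281% to 0.316% in wild type. In this share the groups overlapped, with mutant replicate 2 at 0.3161% and wild type replicate 3 at 0.3162%.

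**Figure D2:**
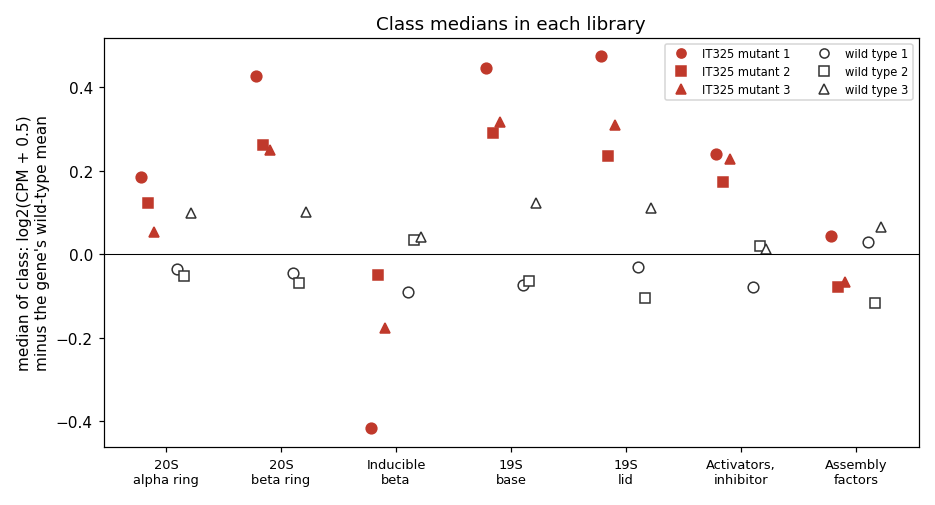
For each class and library, the median over tested genes of log2(CPM + 0.5) minus the gene's wild-type mean, with mutants filled and wild type open. In the 20S beta ring, the 19S base and the 19S lid the 3 mutant libraries lie above the 3 wild-type libraries, with mutant replicate 1 at the top. The same holds for the activators and inhibitor, at 0.24, 0.17 and 0.23 in mutants, against -0.08, 0.02 and 0.01 in wild type. In the inducible beta class mutant replicate 1 is the lowest library, at -0.42, and the groups overlap. Mutant replicate 2, at -0.05, lies above wild type replicate 1, at -0.09.

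The alpha subunits form the outer rings of the core and its gate. The most abundant of them by counts, psma1, was at 150.2, 143 and 132 CPM in mutants, against 131, 121 and 133 CPM in wild type. Its groups overlapped, with a log2 fold change of 0.14 (edgeR adjusted p 0.19). Only psma4 and psma6a rose, by 0.34 and 0.35 on the log2 scale (edgeR adjusted p 0.0142 and 0.0268). Psma3 was at 0.18 (adjusted p 0.0624) without overlap of the groups, and psma2a, psma2b, psma5, psma8 and psma6l lay between -0.05 and 0.15. Psma8, which the RefSeq annotation also lists under the older name psma7, was at 0.08, and at -0.03 without scaling factors. Psma5 likewise changed sign without factors, to -0.08.

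Zebrafish carry several genes for the alpha 6 subunit, and their values differed in direction. Psma6b was at 128, 116 and 87.9 CPM in mutants, against 148, 147 and 163 CPM in wild type. Every mutant library was below every wild-type library, and psma6b fell by 0.46 on the log2 scale (SE 0.132, edgeR adjusted p 0.0285). Psma6a was at 34.6, 30.2 and 33.4 CPM in mutants, against 23.4, 24.9 and 28.5 CPM in wild type, the opposite order. The third gene, psma6l, was at 19.2, 19.8 and 18.5 CPM in mutants, against 19.6, 19.1 and 20.8 CPM in wild type, a log2 fold change of -0.05 (edgeR adjusted p 0.694). The call of psma6b was lost without mutant replicate 2 and without each wild-type library in turn, where the edgeR adjusted p was 0.0584 to 0.0729 and the log2 fold change -0.49 to -0.41. Genes of this similarity can share reads, so their values are uncertain.

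The beta ring holds the catalytic sites. Psmb5 carries the chymotrypsin-like site and was at 72.0, 59.5 and 63.0 CPM in mutants, against 40.8, 37.4 and 43.4 CPM in wild type. Psmb7, with the trypsin-like site, was at 65.8, 48.7 and 51.9 CPM in mutants, against 33.8, 30.9 and 35.02 CPM in wild type. These were the largest rises of any member, 1.599-fold for psmb5 (log2 0.68, SE 0.0954, edgeR adjusted p 0.000909) and 1.67-fold for psmb7 (log2 0.74, SE 0.119, edgeR adjusted p 0.00184), and both kept their calls in all 14 alternatives. Psmb6, with the caspase-like site, was at 66.3, 58.6 and 58.2 CPM in mutants, against 47.3, 45.4 and 55.3 CPM in wild type. It rose by 0.31 on the log2 scale (SE 0.0968, edgeR adjusted p 0.0389), and 7 alternatives took its call away. The other beta subunits have structural roles. Of these psmb3 rose by 0.35, psmb4 by 0.29 and psmb1 by 0.27, and psmb2 was at 0.21 (adjusted p 0.0728) without overlap of the groups. Psmb4, the most abundant by counts, was at 118, 100.4 and 104 CPM in mutants, against 84.9, 83.4 and 94.9 CPM in wild type. In the RefSeq annotation psmb1 lies on the chromosome of ikzf1, where homozygous mutants share a haplotype around the mutation, and psmb1 lost its call under 7 alternatives.

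The inducible beta genes can be set beside the catalytic subunits they replace. Psmb8a, the inducible counterpart of psmb5, was at 24.9, 36.3 and 34.6 CPM in mutants, against 36.7, 41.6 and 39.3 CPM in wild type. The groups did not overlap, though the highest mutant lay close to the lowest wild type, and the difference did not pass (log2 -0.30, SE 0.139, edgeR adjusted p 0.133). Psmb9a, the counterpart of psmb6, was at 12.9, 18.2 and 13.7 CPM in mutants, against 16.5, 17.9 and 18.0 CPM in wild type, with overlap (log2 -0.22, edgeR adjusted p 0.242). Without mutant replicate 2 psmb9a was called, at -0.39 (edgeR adjusted p 0.0438). Psmb10, the counterpart of psmb7, went the other way, at 43.8, 42.6 and 43.5 CPM in mutants, against 34.98, 37.9 and 39.8 CPM in wild type. Its log2 fold change of 0.20 did not pass (edgeR adjusted p 0.0742).

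Fish have further inducible beta genes beside psmb8a and psmb9a, and the 4 genes stand in adjacent rows of the table. Psmb13a, which the annotation places at the position of psmb7, was at 25.2, 32.2 and 30.8 CPM in mutants, against 36.2, 39.9 and 37.2 CPM in wild type. It was the one inducible gene that fell, by 0.36 on the log2 scale (SE 0.106, edgeR adjusted p 0.0297). Without any 1 library other than mutant replicate 2 the call was lost, with an edgeR adjusted p of 0.0506 to 0.0993. Psmb12, placed at the position of psmb6, was at 24.3, 28.0 and 26.1 CPM in mutants, against 26.6, 27.8 and 32.9 CPM in wild type, with overlap and a log2 fold change of -0.16 (edgeR adjusted p 0.289). The RefSeq models of psmb8a and psmb13a overlap and span psmb12 and psmb9a, so the values of these neighbours are uncertain. The thymic gene psmb11b had 0, 0 and 0 counts in mutants, against 3, 0 and 7 counts in wild type, and did not pass the filter. Without the filter its edgeR adjusted p was 0.158. A count of 0 allows up to 0.0616 to 0.0752 CPM in each mutant library taken alone. The wild-type libraries were at 0.0786, 0 and 0.127 CPM, so these few counts do not settle whether psmb11b differed.

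**Figure D3:**
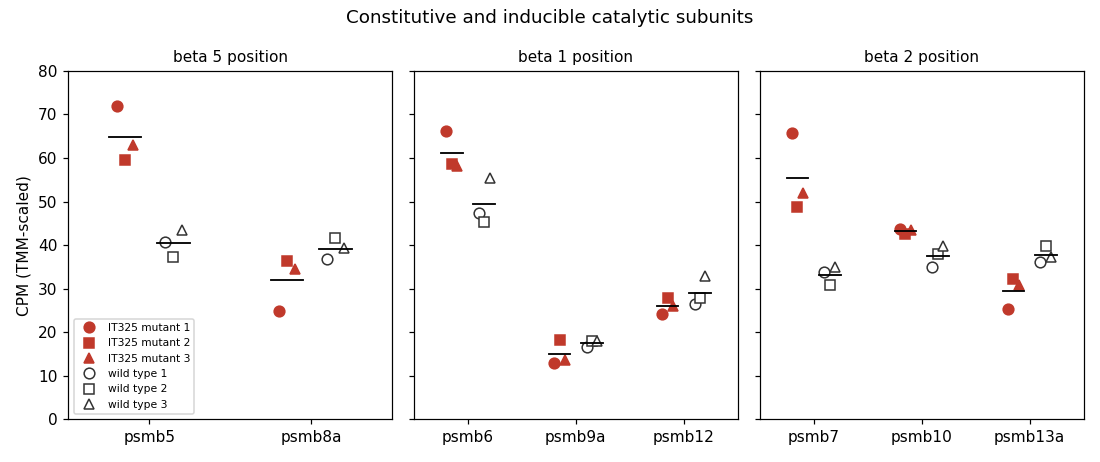
Levels in CPM of the constitutive and inducible genes for each catalytic position, with 1 point per library, mutants filled and left of wild type, and a line at each group's mean. Psmb5 and psmb7 lie higher in mutants without overlap, at means of 64.8 and 55.5 CPM against 40.5 and 33.2 CPM in wild type, and psmb13a lies lower, at 29.4 against 37.8 CPM.

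The balance within a position was also read as a ratio of counts in each library, in which library scaling cancels. Gene lengths do not cancel, so a ratio is compared between libraries only. For psmb8a over psmb5 it was 0.346, 0.609 and 0.549 in mutants, against 0.899, 1.11 and 0.905 in wild type. For psmb13a over psmb7 it was 0.384, 0.662 and 0.594 in mutants, against 1.07, 1.29 and 1.06 in wild type. For psmb9a over psmb6 it was 0.195, 0.311 and 0.236 in mutants, against 0.350, 0.394 and 0.325 in wild type. None of these ratios overlapped between the genotypes, nor did those of psmb12 over psmb6 and psmb10 over psmb7. As geometric means the mutant ratio was 0.503 of that in wild type for psmb8a over psmb5 and 0.468 for psmb13a over psmb7, and 0.684 to 0.726 for the other 3 pairs. The denominators psmb5 and psmb7 had the largest rises of any member, at 0.68 and 0.74 on the log2 scale. Psmb10 was itself higher in mutants, at 0.20, so its lower ratio reflects the larger rise of psmb7. The ratios were not tested, and each rests on values given above. Overlap was not counted for other pairs of genes, so these ratios have no share to stand beside.

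Lymphocytes express the immunoproteasome without induction, and their markers moved in these libraries. The 6 B cell markers summed to 91.8, 150.2 and 102 CPM in mutants, against 707, 707 and 777 CPM in wild type. The 10 T cell markers summed to 256, 298 and 217 CPM in mutants, against 969, 938 and 1044 CPM in wild type. Mutant replicate 1, lowest for the B cell sum, was also lowest of the 6 libraries for psmb8a, psmb9a, psmb12 and psmb13a. It was the highest library for psmb10, at 43.8 CPM, and the T cell sum was lowest in mutant replicate 3. The part of lymphocytes in these values was not tested. Without mutant replicate 1 the log2 fold change was -0.14 for psmb8a and -0.25 for psmb13a.

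Other genes of peptide supply to MHC class I gave more falls than rises. Of 16 genes tested 5 fell, 31.25% beside 16.4% of all genes, and 0 rose, beside 17.5%, with a median log2 fold change of -0.17. At an unadjusted p under 0.05 in edgeR 6 genes were lower and 2 higher, without a count of all genes at that threshold. DESeq2 called 4 lower and 1 higher, beside 2932 and 3512 of the 20934 genes it tested. Above 0 lay 6 of the 16. The largest change of the list was that of calr3b, at 0.93 (edgeR adjusted p 0.0773). Calr3a was higher without overlap at 0.43 (edgeR adjusted p 0.0562). B2m, the invariant light chain of class I, fell by 0.37 and b2ml by 0.21 on the log2 scale. Tap2a, a subunit of the peptide transporter, fell to 14.6 ± 2.43 CPM in mutants, against 23.5 ± 2.02 CPM in wild type (SD, n = 3 each; log2 fold change -0.69, edgeR adjusted p 0.00505). The trimming peptidases erap1a and erap1b fell by 0.32 and 0.59. Of 19 interferon response genes tested 4 rose and 4 fell, 21.1% each way and near the shares of all genes, with a median of -0.05. Without scaling factors 2 of them rose and 4 fell, beside 13.6% and 21.0% of all genes. The extremes were irf8, a transcription factor of B and myeloid cells, at -2.94 and mxc, an antiviral GTPase, at 1.37. Ifng1, a gene for interferon gamma, was at 5.00 ± 1.49 CPM in mutants, against 5.92 ± 1.46 CPM in wild type (SD, n = 3 each; edgeR adjusted p 0.499).

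The 19S base holds a ring of ATPases, psmc1 to psmc6, and the large scaffolds psmd1 and psmd2. Psmd1, its most abundant gene by counts, was at 144, 118 and 122 CPM in mutants, against 84.5, 84.9 and 101 CPM in wild type. All mutants were above all wild types, and psmd1 rose by 0.51 on the log2 scale (SE 0.105, edgeR adjusted p 0.0062). Psmc1a had the largest rise among the ATPases, at 88.1, 77.3 and 75.3 CPM in mutants, against 51.9, 53.6 and 60.8 CPM in wild type (log2 0.53, SE 0.092, edgeR adjusted p 0.0026). Its paralogue psmc1b, psmc2, psmc4, psmc5 and psmc6 rose by 0.34 to 0.35. Psmc3 was at 0.22 without overlap (adjusted p 0.0572) and was called in 3 of 14 alternatives. Psmd4, a ubiquitin receptor, has a pair of genes, of which psmd4a rose by 0.48 (edgeR adjusted p 0.00908) and psmd4b was at 0.14 (adjusted p 0.332). Their difference was not tested.

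Psmd2 had 2 rows in the table. ENSDARG00000099653 was at 71.0, 62.6 and 64.8 CPM in mutants, against 49.98, 52.5 and 57.2 CPM in wild type. ENSDARG00000103190 was at 51.2, 51.2 and 49.7 CPM in mutants, against 36.7, 41.5 and 43.5 CPM in wild type. Both rose by about the same amount, 0.31 and 0.32 on the log2 scale. The annotation has 1 psmd2 gene, so the rows may be copies or parts of it, and their values are uncertain and are not independent.

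In the lid, psmd3, a scaffold subunit and the most abundant by counts, was at 81.3, 73.0 and 73.9 CPM in mutants, against 58.5, 59.8 and 60.4 CPM in wild type. It rose by 0.35 on the log2 scale (SE 0.0712, edgeR adjusted p 0.0056) and kept its call in all 14 alternatives. Psmd11b rose most, by 0.55 (SE 0.133, edgeR adjusted p 0.0132), at 39.3, 33.8 and 28.9 CPM in mutants, against 23.4, 20.4 and 25.8 CPM in wild type. Its paralogue psmd11a was at 0.25 (adjusted p 0.0659). Psmd6, psmd8, psmd12 and psmd13 rose by 0.34 to 0.40. Psmd14, the deubiquitinase that releases the ubiquitin chain, was at 55.9, 45.7 and 46.2 CPM in mutants, against 37.1, 36.3 and 44.3 CPM in wild type. The groups did not overlap, but its log2 fold change of 0.33 lay just outside the threshold (edgeR adjusted p 0.0517), and 5 alternatives called it. Psmd7, its partner, overlapped between the groups at 0.08 (adjusted p 0.6).

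The activators open the core without the 19S cap. Psme4a and psme4b encode PA200, a nuclear activator. Psme4b was at 103, 94.5 and 95.9 CPM in mutants, against 85.2, 87.0 and 83.4 CPM in wild type, without overlap (log2 0.20, edgeR adjusted p 0.0508). Psme4a rose by 0.49 (SE 0.107, edgeR adjusted p 0.00839), at 30.6, 34.1 and 34.1 CPM in mutants, against 21.8, 26.8 and 21.8 CPM in wild type. It lies on the chromosome of ikzf1 in the annotation. The subunits of PA28, which is tied to antigen processing, did not pass. Psme1 was at 0.14 (adjusted p 0.15) and psme2 at 0.23 (adjusted p 0.0521), both without overlap. Psme3, which forms a nuclear PA28 of its own, was at -0.10 (adjusted p 0.452).

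Psmf1 encodes PI31, described as an inhibitor of the core in vitro. It was at 23.0, 22.9 and 22.1 CPM in mutants, against 15.8, 14.5 and 14.7 CPM in wild type. The spread within each group was small, and psmf1 rose 1.51-fold (log2 0.60, SE 0.0877, edgeR adjusted p 0.00116), with calls in all 14 alternatives.

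The assembly factors moved unevenly. The products of psmg1 and psmg2 pair to start the alpha ring. Psmg2 was at 28.3, 31.8 and 26.9 CPM in mutants, against 41.1, 43.9 and 43.2 CPM in wild type. It fell by 0.56 on the log2 scale (SE 0.0874, edgeR adjusted p 0.00158), the largest fall of any member, and was called in all 14 alternatives, with values from -0.66 to -0.50. Its partner psmg1 was at 21.0, 20.1 and 22.9 CPM in mutants, against 21.8, 19.9 and 23.9 CPM in wild type, with overlap (log2 -0.04, edgeR adjusted p 0.812). Psmg3, which acts in the same ring, was lower without overlap at -0.24 (adjusted p 0.0638), and passed under upper-quartile scaling, without factors and without wild type replicate 3. The chaperones of the base were psmd5, psmd9 and psmd10. Psmd5 rose by 0.51 (SE 0.148, edgeR adjusted p 0.0274), at 21.1, 18.7 and 17.4 CPM in mutants, against 12.6, 11.2 and 16.2 CPM in wild type. Psmd9 was at 0.31 (adjusted p 0.0985) and psmd10 at -0.12 (adjusted p 0.634).

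The prefix also took in a pair of genes that encode no subunit. Psmc3ip, a partner in meiotic recombination, was at 0.26 (edgeR adjusted p 0.205), and psme3ip1, which binds the psme3 product, at 0.04 (adjusted p 0.844). Without them 27 of 55 tested members rose and 3 fell, with a median of 0.29.

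Genes that work with the proteasome but lack the prefix were set beside it. Of 12 partners tested 2 rose and 0 fell, with a median of 0.21. The share that rose, 16.7%, was close to the 17.5% of all genes. At an unadjusted p under 0.05 in edgeR 6 were higher and 1 lower, a threshold at which the share of all genes was not counted. DESeq2 called 3 higher and 1 lower, beside 3512 and 2932 of the 20934 genes it tested. Mutants lay above wild type without overlap for 8 of the 12 and below for 1, beside 25.8% and 24.7% of all genes. Without scaling factors 1 rose and 2 fell, beside 13.6% and 21.0% of all genes, with a median of 0.11. Adrm1, a ubiquitin receptor of the base, rose to 67.0 ± 5.07 CPM in mutants, against 47.8 ± 1.55 CPM in wild type (SD, n = 3 each; log2 0.49, edgeR adjusted p 0.00188). Pomp, the chaperone of the beta ring, rose to 60.1 ± 1.42 CPM in mutants, against 48.9 ± 3.87 CPM in wild type (SD, n = 3 each; log2 0.30, edgeR adjusted p 0.0198). The deubiquitinases of the cap, uchl5 and usp14, were at 0.12 and -0.25 (adjusted p 0.436 and 0.126). Zfand5b, the most abundant of the list by counts, was lower without overlap at -0.40 (edgeR adjusted p 0.0719). Its paralogue zfand5a had the largest change of the list, 0.62, with overlap (edgeR adjusted p 0.0942).

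Ubiquitin supply and the factors that bring substrates to the proteasome gave 9 rises and 1 fall among 16 genes tested, with a median of 0.27, beside 17.5% and 16.4% of all genes. Without scaling factors 3 rose and 3 fell, beside 13.6% and 21.0% of all genes, with a median of 0.16. Vcp, the ATPase that extracts ubiquitin-tagged proteins from complexes and membranes, rose to 323 ± 18.8 CPM in mutants, against 242 ± 21.1 CPM in wild type (SD, n = 3 each; log2 0.42, edgeR adjusted p 0.00575). Its cofactors nploc4, ufd1, nsfl1c and faf1 rose by 0.26 to 0.42. The shuttle gene rad23ab had the largest rise of the list, to 22.8 ± 2.15 CPM in mutants, against 10.02 ± 0.809 CPM in wild type (SD, n = 3 each; log2 1.19). The ubiquitin-activating enzymes uba1 and uba6 were at -0.13 and 0.01 and did not pass (edgeR adjusted p 0.156 and 0.959).

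Of 12 regulators of proteasome genes tested 5 rose and 1 fell, with a median of 0.22, beside 17.5% and 16.4% of all genes. Without scaling factors 3 rose and 2 fell, beside 13.6% and 21.0% of all genes, with a median of 0.11. Nfe2l1 is the factor that raises proteasome subunits when proteasome activity is short in mammalian cells. Nfe2l1b was at 27.0 ± 1.06 CPM in mutants, against 33.1 ± 3.71 CPM in wild type (SD, n = 3 each; log2 -0.29, edgeR adjusted p 0.0517). Its mutants lay below wild type without overlap, and the difference did not pass. Nfe2l1a was at 14.2 ± 4.45 CPM in mutants, against 14.7 ± 2.93 CPM in wild type (SD, n = 3 each; edgeR adjusted p 0.907). Nfe2l2a, the related factor of the oxidative stress response, rose by 0.31 (edgeR adjusted p 0.0162). Keap1a and keap1b, which restrain it, rose by 0.56 and 0.33, and bach1a and bach1b, heme-sensing repressors of the same sites, both by 0.52. Mafk, a small Maf partner of these factors, fell by 1.29 on the log2 scale (edgeR adjusted p 0.0158). Ddi2 and ngly1, which process the nfe2l1 product, were at 0.13 and -0.11 and did not pass.

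**Figure D4:**
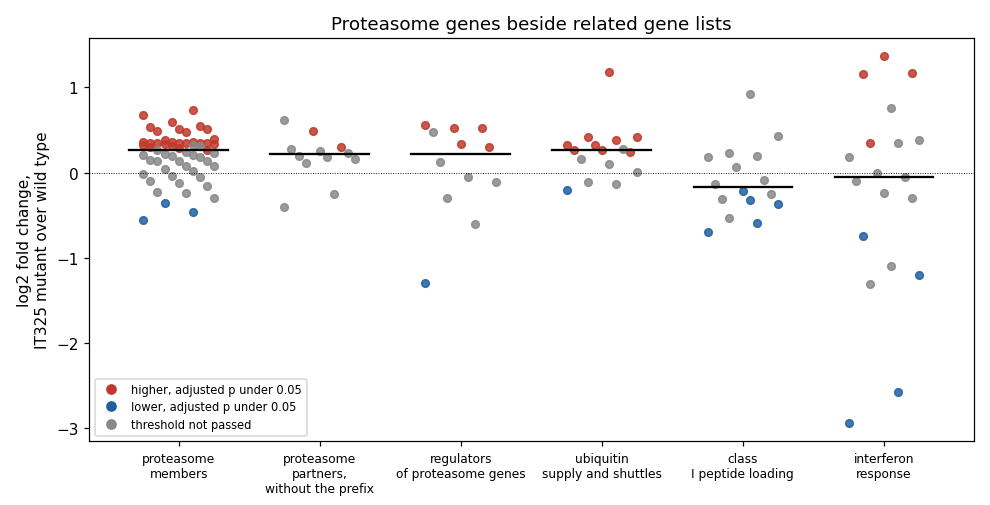
Log2 fold changes, mutant over wild type, of the proteasome genes and of 5 related gene lists, with 1 point per tested gene, colour for the call and a line at each median. The members and the lists of partners, regulators and ubiquitin genes have medians of 0.21 to 0.27. Class I peptide loading and interferon response have medians of -0.17 and -0.05.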

How the data were processed

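Stranded libraries were made from poly-A RNA of 3 mutants and 3 wild-type siblings. Paired-end reads were aligned by the authors with STAR 2.5.2b-1, using the Ensembl annotation Zv10.85, and counted with featureCounts 1.6.0.1. The deposited values are raw counts per gene. The strand setting of the counting is not given in the sources used here. The submitters' processing notes also name DESeq2.

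Gene names gave a symbol for 81.8% of genes. Many were those of human orthologues. The fish name of 55 members was taken from neighbouring genes in the RefSeq annotation GRCz12tu, a different build used for names and gene order only, with at least 4 neighbours shared, and that of 3 members from the symbol alone. In the gene lists 12 entries were not used. Of these 11 had no match and 1 was a wrong entry in the T cell list.

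Counts were filtered by filterByExpr (minimum count 10), scaled by TMM and tested in edgeR 4.0.16 under R 4.3.3 by quasi-likelihood with robust dispersions, mutants over wild type, two-sided, with Benjamini-Hochberg adjustment over all genes tested. The standard error is the log2 fold change over the root of F. A floor of 3 counts (about 95% confidence) covers counting error only. The steps were tested on simulated data, and 14 alternatives were run. P-values measure the spread between 3 libraries per genotype, which the study's methods describe as individual fish. Values per library are given for inducible genes, members that fell, the most abundant gene of each class and, chosen after their values were seen, other genes of each class. The values of 1 gene of the ubiquitin list are not reported here. Members and lists were chosen with earlier results of these data known.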

Additional observations from a re-analysis of the deposited data

How the results depend on the processing

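The alternatives were median-ratio, upper-quartile and no scaling factors, TMM without the 50 most abundant genes, no filter, a mean of at least 10 counts, DESeq2 1.42.0, the replicate number as a block, and leaving out each library. Between 25 and 31 members rose under the other scalings, filters and DESeq2, and 3 or 4 fell. Under these settings 2918 to 3512 of all genes rose and 2777 to 3179 fell. Without factors 14 members rose, beside 13.6% of all genes, and the median of the members was 0.16. All 30 calls were kept by DESeq2. Without 1 library 14 to 31 members rose and 1 to 3 fell (1 on leaving out wild type replicate 1 or 2). The median of the members was then 0.23 to 0.33, and 4587 to 5978 genes of the table were called. Of these genes 2409 to 3308 rose and 2178 to 2670 fell. In all 14 alternatives 13 rises and 1 fall held.

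With the replicate block 23 members rose and 3 fell, beside 2847 and 2523 of 17828 genes tested. The calls of psmb1, psmb4, psmb6 and psmc6 were lost, and no other call of a member changed. Deviations of libraries with the same number correlated at 0.0787, 0.128 and 0.0548, and 4 of 6 libraries correlated best with their own number. These values do not settle whether the numbers mark pairs. The main fit did not take them as pairs.

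Signs turned only in members that had no call. Without factors psmd7 was at -0.0228, psma5 at -0.0797, psma8 at -0.0299 and psme3ip1 at -0.0659, and with upper-quartile factors psma5 was at -0.00633. Without 1 library psma2b ranged between -0.0533 and 0.0127, psma5 between -0.0319 and 0.0929, psmd10 between -0.267 and 0.054, psmg1 between -0.0996 and 0.0318, and psme3ip1 between -0.101 and 0.133. The cause was not tested. The smallest fold called among the members was 1.205, for psmb1, and their standard errors on the log2 scale were 0.0663 to 0.179.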
